A study of Mus musculus with 10 samples.

Results

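The 1032 regions described here are the short places of the mouse autosomes at which 4 acyl marks of histone H4 were all called in both stages of male germ cell development that were mapped. They were found by merging the enriched islands of 8 deposited lists wherever islands overlapped by at least 1 bp. The regions were chosen by their calls and their length: a region was kept when at least 1 island of each of the 8 lists lay in it and its merged length was under 4000 bp. They make up 1.77% of the 58242 merged regions on chromosomes 1 to 19, and 6.64% of the 15547 autosomal regions called in all 8 lists. The same rule of 8 calls held for 6237 regions of 4000 to under 8000 bp and for 8278 regions of 8000 bp or more. A further 30974 autosomal regions under 4000 bp were called in 1 to 7 lists.

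The lists came from ChIP-seq (chromatin immunoprecipitation followed by sequencing) of mononucleosomes from the testis of Oncins France 1 mice. The tested stage was round spermatids, the haploid cells after meiosis, and it was set against spermatocytes, the cells in meiosis; both had been fractionated from testis. In each stage 1 library was made for each of H4K5ac, H4K5bu, H4K8ac and H4K8bu, where ac stands for an acetyl and bu for a butyryl group and K5 and K8 are lysines of the H4 tail. Each immunoprecipitation took about 100 ug of mononucleosomes and 5 ug of antibody, and 1 input library per stage was sequenced without immunoprecipitation. The labels give neither the number of animals nor the purity of the fractions, and island lists cannot measure purity. With 1 library per group there was no test between groups, and the spread of replicates is not known for any value.

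Acetylation of the H4 tail opens chromatin and is read by bromodomain proteins. In male germ cells the testis-specific bromodomain protein Brdt binds H4 tails acetylated at K5 and K8 together, and butyrylation at K5 is known to interfere with this binding. Butyrylation puts a longer acyl chain on the same lysine, so 1 lysine of 1 histone molecule cannot carry acetyl and butyryl at the same time. A call of all 4 marks in a region therefore describes a population of nucleosomes, alleles and cells. After the round spermatid stage, H4 hyperacetylation precedes the replacement of most histones by protamines.

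Fold means the ChIP reads of an island over the input reads of the same island, times 1 constant per list. Islands of the 8 lists held 4768412 to 9230541 ChIP reads per library. The short regions held 77444 to 114926 of these in the lists of round spermatids, 1.25% to 1.62% of a list's reads, and 145014 to 194071 in those of spermatocytes, 2.10% to 2.60%. Positions follow the mm9 build and count from 1. Gene names could not be read from positions in this build, so genes, promoters and sequence at these regions are not analysed here, and regions are named by position.

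The median fold of each of the 4 marks was above 3 in both stages. H4K5ac had the highest fold of the 4 marks in most short regions, as in most regions called in all 8 lists. In round spermatids H4K5ac had a median fold of 5.26 over the 1032 regions (5.12 to 5.38), H4K5bu 4.18 (4.09 to 4.28), H4K8ac 3.24 (3.19 to 3.31) and H4K8bu 3.82 (3.72 to 3.91). In spermatocytes H4K5ac had 9.38 (9.10 to 9.75), H4K5bu 5.70 (5.52 to 5.84), H4K8ac 5.78 (5.61 to 5.97) and H4K8bu 6.97 (6.78 to 7.20). Spermatocytes thus had the higher median for every mark. These values describe what the calls selected and carry no test.

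The middle of the distributions was narrow in round spermatids and wide in spermatocytes. For H4K5ac, round spermatids spanned 3.05 to 9.09 from the 5th to the 95th percentile of regions, while spermatocytes spanned 3.77 to 17.6. For H4K8ac round spermatids spanned 2.07 to 5.29 and spermatocytes 2.58 to 11.1. On the log2 scale round spermatids had an SD between regions of 0.41 to 0.48 over the 4 marks, against 0.60 to 0.69 in spermatocytes. A fold of at least 5 in all 8 lists was reached by 31 regions, and 58 had a fold under 2 in at least 1 list. Longer regions were not counted in this way, so these counts have no background.

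**Figure D1:**
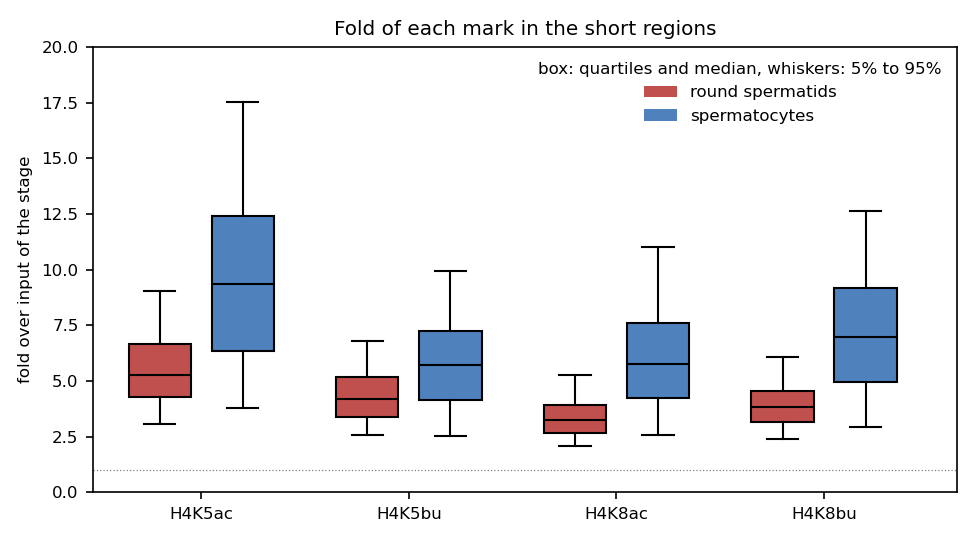
Fold over the input of the stage (vertical axis, linear) in the 1032 short regions for each mark, with round spermatids on the left of each pair and spermatocytes on the right. Boxes give quartiles and the median and whiskers the 5th to 95th percentile over regions; for H4K5ac the median is 5.26 in round spermatids and 9.38 in spermatocytes.

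Within a stage the order of the marks was largely that of all 15547 regions called in all 8 lists. H4K5ac had the highest fold of the 4 marks in 834 short regions in round spermatids (80.8%, beside 88.6% of all 15547) and in 904 in spermatocytes (87.6%, beside 90.2%). H4K8ac had the lowest fold in 725 regions in round spermatids (70.3%, beside 82.0%). In spermatocytes the lowest place was shared between H4K5bu, in 503 regions (48.7%, beside 43.8%), and H4K8ac, in 442 (42.8%, beside 47.9%). H4K5bu was lowest in 87 regions in round spermatids (8.43%, beside 4.46%), while H4K8bu was lowest there in 210 (20.3%, beside 13.2%).

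The reads behind these folds were few, which limits what can be said of a single region. In round spermatids a region had a median of 96 H4K5ac, 105 H4K5bu, 70 H4K8ac and 97 H4K8bu reads. In spermatocytes the medians were 170 H4K5ac, 160 H4K5bu, 141 H4K8ac and 190 H4K8bu reads. Round spermatids had a median of 31 to 40 input reads and spermatocytes 30 to 34, and 24 regions had fewer than 10 input reads in at least 1 list. All intervals are 95%; those of folds are exact conditional binomial intervals and cover counting error only, and those of medians come from order statistics over regions, which are not independent replicates.

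Each short region held exactly 1 island of each list, and the 8 islands lay on top of each other. The merged length had a median of 3400 bp, with quartiles of 3000 and 3600 bp and a range of 600 to 3800 bp; 196 regions were under 3000 bp and 7 under 2000 bp. Every short region had bases that lay in the islands of all 8 lists. This shared part had a median of 1400 bp (quartiles 1200 and 1800 bp), or 42.9% of the merged length. In 1 region all 8 islands had the same start and end.

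The marks differed in how far their islands reached. In round spermatids the median H4K5ac island was 2400 bp long, the H4K5bu island 2200 bp, the H4K8ac island 1800 bp and the H4K8bu island 2400 bp. In spermatocytes the H4K5ac island had 2400 bp, the H4K5bu island 2600 bp, the H4K8ac island 2200 bp and the H4K8bu island 2400 bp. The H4K8ac island of round spermatids, from the list with the fewest islands, reached an outer edge of the merged region in 216 regions (20.9%). The H4K5bu island of spermatocytes did so in 547 (53.0%), the most of any list. At the short regions, H4K5bu and H4K8ac islands were mostly shorter in round spermatids than in spermatocytes. The H4K5bu island was shorter there in 59.4% of regions and longer in 30.9%, and the H4K8ac island shorter in 63.7% and longer in 27.3%. For the other marks the split was closer, with the H4K5ac island shorter in 39.6% and longer in 48.9%, and the H4K8bu island shorter in 42.7% and longer in 45.0%. In regions of 8000 bp or more called in all 8 lists, islands of every mark were mostly longer in round spermatids. The share ran from 68.6% for H4K8ac to 84.4% for H4K5ac. In those of 4000 to under 8000 bp the H4K5bu islands were longer in 51.2%, and the H4K8ac islands in 44.3%.

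The stages had spans of about the same length. The length limit bounds the spans of both stages, and the overlap of these spans was not measured. The 4 islands of a stage together spanned a median of 3000 bp in round spermatids and 3000 bp in spermatocytes. The span was wider in round spermatids in 455 regions and wider in spermatocytes in 436, and it was equal in 141. The median distance between the middle of an island and the middle of its region was 200 bp in each of the 8 lists, which is 1 step of the grid of island edges.

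**Figure D2:**
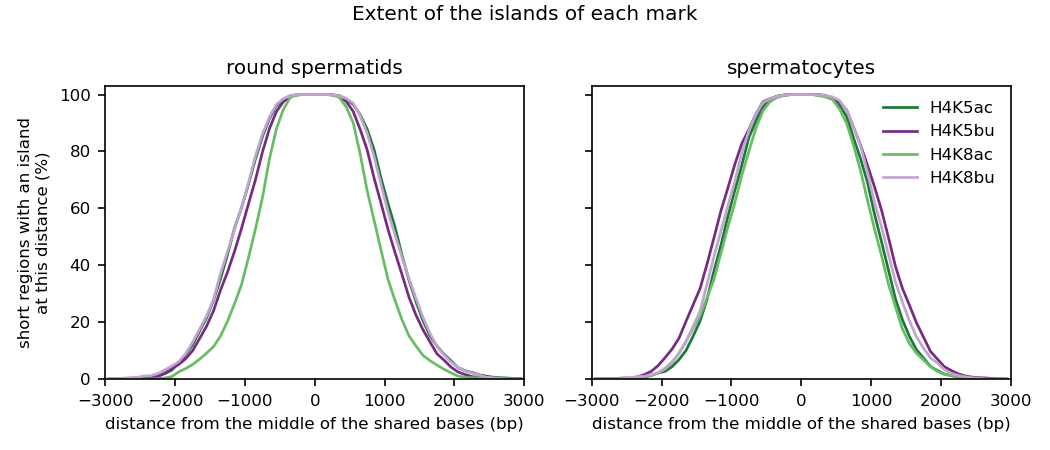
Percent of the 1032 short regions (vertical axis) in which an island of the mark covers a base at the given distance (horizontal axis, bp) from the middle of the bases shared by all 8 lists, with round spermatids left and spermatocytes right. The H4K8ac curve of round spermatids is the narrowest, with a median island of 1800 bp, and the H4K5bu curve of spermatocytes the widest, with 2600 bp.

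The comparison of stages asked how each mark differed between round spermatids and spermatocytes at these places. In the typical short region all 4 marks had a lower fold in round spermatids. As a median log2 ratio of folds, round spermatids over spermatocytes, H4K5ac had -0.77 (-0.83 to -0.74), H4K5bu -0.40 (-0.43 to -0.36), H4K8ac -0.81 (-0.86 to -0.77) and H4K8bu -0.85 (-0.91 to -0.79). H4K5bu thus differed least between the stages. Calls in both stages and the length chose these regions, so the values are a description.

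Counted at 1.5-fold, 640 of the 1032 short regions were lower in round spermatids for H4K5ac (62.0%), beside 35.2% of all 24559 autosomal regions with this mark in both stages. For H4K5bu 364 were lower (35.3%), beside 20.7% of 21183. For H4K8ac 666 were lower (64.5%), beside 40.7% of 16834. For H4K8bu 679 were lower (65.8%), beside 35.6% of 22438. A fold at least 1.5 times higher in round spermatids was found in 47 short regions for H4K5ac (4.55%, beside 17.5%), in 67 for H4K5bu (6.49%, beside 17.9%), in 24 for H4K8ac (2.33%, beside 6.99%) and in 33 for H4K8bu (3.20%, beside 11.8%).

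The ratios of all regions also leaned towards spermatocytes. Over all autosomal regions with a mark in both stages H4K5ac had a median log2 ratio of -0.25, H4K5bu -0.092, H4K8ac -0.43 and H4K8bu -0.28. Relative to that shift, the short regions had a median of -0.53 in H4K5ac, -0.30 in H4K5bu, -0.38 in H4K8ac and -0.57 in H4K8bu. The lower side then held 85.4% of the calls at 1.5-fold for H4K5ac in place of 93.2%, and 83.1% for H4K8ac in place of 96.5%. Centred, 484 short regions were lower and 83 higher in H4K5ac, 312 lower and 87 higher in H4K5bu, 373 lower and 76 higher in H4K8ac, and 509 lower and 67 higher in H4K8bu.

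**Figure D3:**
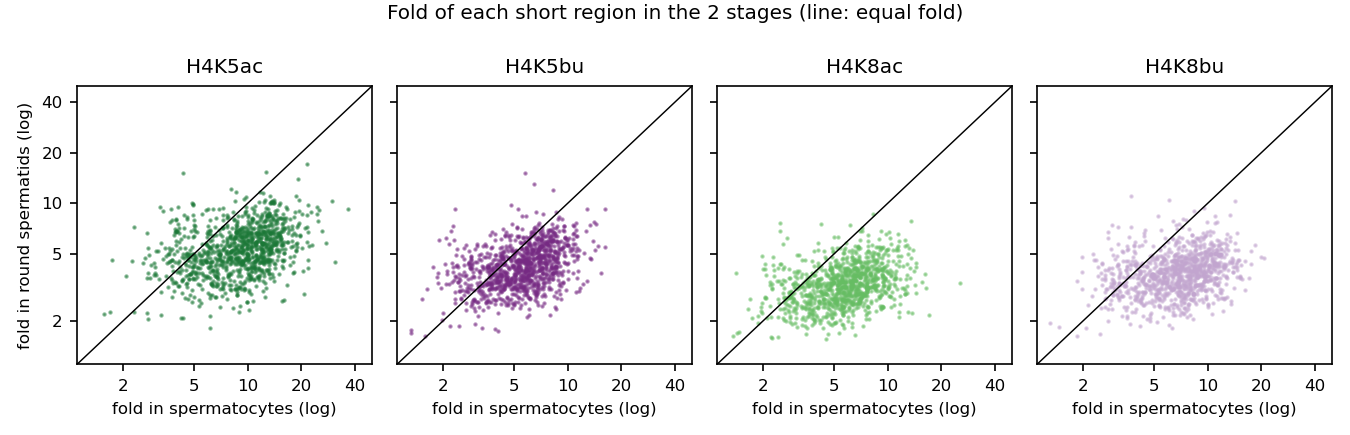
Fold of each of the 1032 short regions in round spermatids (vertical axis, log scale) against spermatocytes (horizontal axis, log scale), 1 panel per mark; the line marks equal folds. Most points lie below the line, 86.7% in the H4K5ac panel, 76.1% in H4K5bu, 89.5% in H4K8ac and 87.5% in H4K8bu, beside 60.2%, 55.7%, 71.6% and 62.4% of all autosomal regions with the mark in both stages.

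The 4 marks mostly shared a direction. In 727 short regions (70.4%) all 4 folds were lower in round spermatids, beside 46.4% of the 15547 regions called in all 8 lists. In 56 (5.43%) all 4 were higher, beside 21.2%. The remaining 249 were mixed (24.1%, beside 32.4%), and in 100 of them H4K5bu alone was higher (9.69%, beside 12.1%). H4K5ac alone was higher in 18 (1.74%, beside 1.82%), H4K8bu alone in 18 (1.74%, beside 1.07%) and H4K8ac alone in 13 (1.26%, beside 1.26%). All 4 marks were at least 1.5-fold lower in 292 short regions (28.3%, beside 11.3%) and at least 1.5-fold higher in 12 (1.16%, beside 3.67%). The 4 lists of a stage share 1 input library, so input reads of a region enter all 4 ratios and the marks are not independent of each other.

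Among regions called in all 8 lists, the ratio of stages changed with length. Among regions of 4000 to under 8000 bp called in all 8 lists, H4K5ac had a median log2 ratio of -0.55, H4K5bu -0.17, H4K8ac -0.59 and H4K8bu -0.61. In regions of 8000 bp or more H4K5ac had -0.12, H4K5bu 0.11, H4K8ac -0.30 and H4K8bu -0.21. The merged length is set by the islands of both stages, and in 84.4% of the regions of 8000 bp or more the H4K5ac islands were longer in round spermatids, so length and the ratio of stages are not independent. Among the short regions, from 2000 to 3800 bp in 5 steps of length, the H4K5ac median lay between -0.89 and -0.74, the H4K5bu median between -0.45 and -0.38, the H4K8ac median between -0.91 and -0.78 and the H4K8bu median between -0.97 and -0.77. The 7 regions under 2000 bp had medians nearer to 0, with -0.40 in H4K5ac, -0.19 in H4K5bu, -0.27 in H4K8ac and -0.68 in H4K8bu. For regions under 4000 bp called in 1 to 7 lists, medians were taken where both stages had the mark. They were -0.32 in H4K5ac, -0.44 in H4K5bu, -0.46 in H4K8ac and -0.14 in H4K8bu. Except for H4K5bu, these were nearer to 0 than in the short regions called in all 8.

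This difference between short and long regions lay in the ChIP reads. For ChIP reads per kb of island, the median log2 ratio of the stages in short regions minus that in regions of 8000 bp or more was -0.69 in H4K5ac, -0.50 in H4K5bu, -0.52 in H4K8ac and -0.62 in H4K8bu. For input reads per kb the same difference was 0.018 to 0.040 over the 4 marks. By level, the short regions had a lower median fold than the long regions in round spermatids and a higher one in spermatocytes. For H4K5ac it was 5.26 in short and 6.65 in long regions in round spermatids, and 9.38 in short and 7.27 in long regions in spermatocytes. For H4K8bu it was 3.82 in short and 4.47 in long regions in round spermatids, and 6.97 in short and 5.23 in long regions in spermatocytes.

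**Figure D4:**
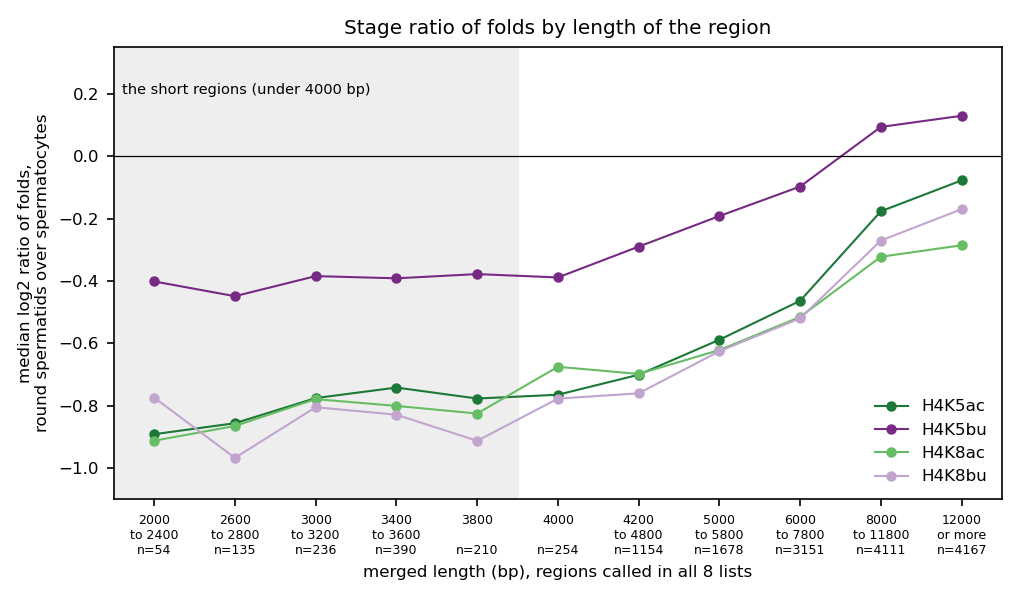
Median log2 ratio of folds, round spermatids over spermatocytes (vertical axis), by merged length in bp (horizontal axis, steps of unequal width, n under each step) for regions called in all 8 lists; the shaded steps are the short regions of 2000 bp or more. The H4K5ac median lies between -0.89 and -0.74 in the shaded steps and at -0.078 in regions of 12000 bp or more.

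Regions just inside and just outside the length limit had close values for the K5 marks, while both K8 marks were nearer to 0 outside it. In the 210 short regions of 3800 bp the median log2 ratio of stages was -0.78 in H4K5ac, -0.38 in H4K5bu, -0.82 in H4K8ac and -0.91 in H4K8bu. In the 254 regions of 4000 bp H4K5ac had -0.76, H4K5bu -0.39, H4K8ac -0.68 and H4K8bu -0.78. Of the 803 autosomal regions under 4000 bp called in 7 lists, 484 (60.3%) lacked H4K8ac in round spermatids and 119 (14.8%) lacked H4K8bu in round spermatids. Their median H4K5ac fold, where called, was 4.16 in round spermatids and 6.98 in spermatocytes, against 5.26 in round spermatids and 9.38 in spermatocytes in the short regions called in all 8.

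The comparison of acyl groups asked how butyrylation stood to acetylation at the same lysine. At K5 the short regions had a lower butyryl than acetyl fold, and the gap was smaller in round spermatids. Without input and constant the order in round spermatids was the reverse, with median ChIP reads per kb of 47.5 for H4K5bu and 41 for H4K5ac. In spermatocytes these medians were 63.2 for H4K5bu and 72.7 for H4K5ac. The median log2 ratio of H4K5bu over H4K5ac was -0.33 in round spermatids (-0.36 to -0.31) and -0.69 in spermatocytes (-0.71 to -0.66). H4K5bu was at least 1.5-fold below H4K5ac in 216 short regions in round spermatids (20.9%, beside 24% of all autosomal regions with both marks) and in 640 in spermatocytes (62.0%, beside 54.4%). It was at least 1.5-fold above in 10 regions in round spermatids (0.969%, beside 0.733%) and in 2 in spermatocytes (0.194%, beside 0.285%). Region by region, the K5 ratio was higher in round spermatids in 806 short regions (78.1%), near the 76.4% of all autosomal regions. Its median difference was 0.36 in the short regions (0.32 to 0.38) and 0.28 over all autosomal regions. It was higher by at least 1.5-fold in 312 (30.2%, beside 24.9%) and lower by as much in 24 (2.33%, beside 2.02%).

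At K8 the butyryl fold stood above the acetyl fold in both stages, by about the same amount in the median. Without input and constant the gap was wider in spermatocytes. Median ChIP reads per kb were then 41.3 for H4K8bu and 39 for H4K8ac in round spermatids. In spermatocytes they were 78.2 for H4K8bu and 61.7 for H4K8ac. For H4K8bu over H4K8ac the median log2 ratio was 0.23 in round spermatids (0.20 to 0.26) and 0.25 in spermatocytes (0.23 to 0.28). H4K8bu exceeded H4K8ac by at least 1.5-fold in 138 short regions in round spermatids (13.4%, beside 15.2%) and in 154 in spermatocytes (14.9%, beside 14.6%). It was below H4K8ac by as much in 13 in round spermatids (1.26%, beside 0.966%) and in 15 in spermatocytes (1.45%, beside 2.69%). The median difference between the stages was -0.0067 (-0.036 to 0.027), and 512 of the 1032 regions (49.6%, beside 56.0%) had the higher ratio in round spermatids. The ratio was at least 1.5-fold higher in round spermatids in 98 regions (9.50%, beside 9.79%) and lower in 118 (11.4%, beside 7.62%). Each mark was pulled down with its own antibody, so a ratio of folds is not a ratio of modified molecules.

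Between the lysines, the acetyl fold was higher at K5 in both stages. The median log2 ratio of H4K8ac over H4K5ac was -0.71 in round spermatids (-0.74 to -0.69) and -0.66 in spermatocytes (-0.68 to -0.64). Without input and constant, median ChIP reads per kb were 41 for H4K5ac and 39 for H4K8ac in round spermatids. In spermatocytes they were 72.7 for H4K5ac and 61.7 for H4K8ac. H4K8ac was at least 1.5-fold below H4K5ac in 647 short regions in round spermatids (62.7%, beside 72.5%) and in 606 in spermatocytes (58.7%, beside 56.7%). It was above H4K5ac by as much in 2 regions in round spermatids (0.194%, beside 0.111%) and in 4 in spermatocytes (0.388%, beside 0.54%). The median difference between the stages was -0.048 (-0.085 to -0.016), with 140 regions at least 1.5-fold lower in round spermatids (13.6%, beside 14.6%) and 100 higher (9.69%, beside 6.7%). Over the 31 regions in which both islands had the same start and end it was -0.93 in round spermatids; the cause was not tested.

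Butyrylation had no such fixed order of the lysines. H4K8bu over H4K5bu had a median log2 ratio of -0.14 in round spermatids (-0.16 to -0.12) and 0.29 in spermatocytes (0.26 to 0.32). H4K8bu was the higher butyryl mark in 341 short regions in round spermatids (33.0%, beside 39.8% of all autosomal regions with both marks) and in 842 in spermatocytes (81.6%, beside 75.3%). In both longer classes called in all 8 lists H4K8bu was the higher mark in 32.0% to 32.3% in round spermatids. In spermatocytes it was higher in 81.3% to 81.9%, so the longer regions had the same pattern. Regions under 4000 bp called in 1 to 7 lists did not have it. There H4K8bu was higher in 53.6% in round spermatids and 67.4% in spermatocytes, with median log2 ratios of 0.028 and 0.16. In the short regions called in all 8, H4K8bu exceeded H4K5bu by at least 1.5-fold in 13 regions in round spermatids (1.26%, beside 1.71%) and in 199 in spermatocytes (19.3%, beside 14.7%). It was below H4K5bu by as much in 70 regions in round spermatids (6.78%, beside 5.11%) and in 11 in spermatocytes (1.07%, beside 1.85%). The ratio was lower in round spermatids in 849 regions (82.3%), near the 83.3% of all autosomal regions with both butyryl marks in both stages. Its median difference was -0.40 in the short regions (-0.44 to -0.38) and -0.37 over all of these, and it was lower by at least 1.5-fold in 361 (35.0%, beside 28.3%). In 16 regions it was higher by as much (1.55%, beside 1.48%).

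Islands with the same start and end have the same input reads, so the input cancels from a ratio within a stage. The constants of both lists stay in it. For H4K5bu and H4K5ac in round spermatids they were 1.47 and 2.12, so such a pair of islands does not test the sign of that ratio. Over the 70 short regions with such a pair, H4K8bu over H4K5bu was -0.084 in round spermatids (-0.15 to -0.029), and over 76 it was 0.30 in spermatocytes (0.21 to 0.34). For H4K5bu over H4K5ac the values were -0.31 over 70 regions in round spermatids (-0.40 to -0.26) and -0.66 over 80 in spermatocytes (-0.72 to -0.60). For these ratios the directions and the contrast between stages were the same as over all 1032 regions. H4K8bu over H4K8ac was 0.38 over 36 regions in round spermatids and 0.27 over 69 in spermatocytes. Over all 1032 regions it was 0.23 and 0.25, so the order of the stages was the reverse. H4K8ac over H4K5ac was -0.93 over 31 regions in round spermatids and -0.67 over 77 in spermatocytes. Over all 1032 regions it was -0.71 and -0.66, so the stages lay closer there.

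**Figure D5:**
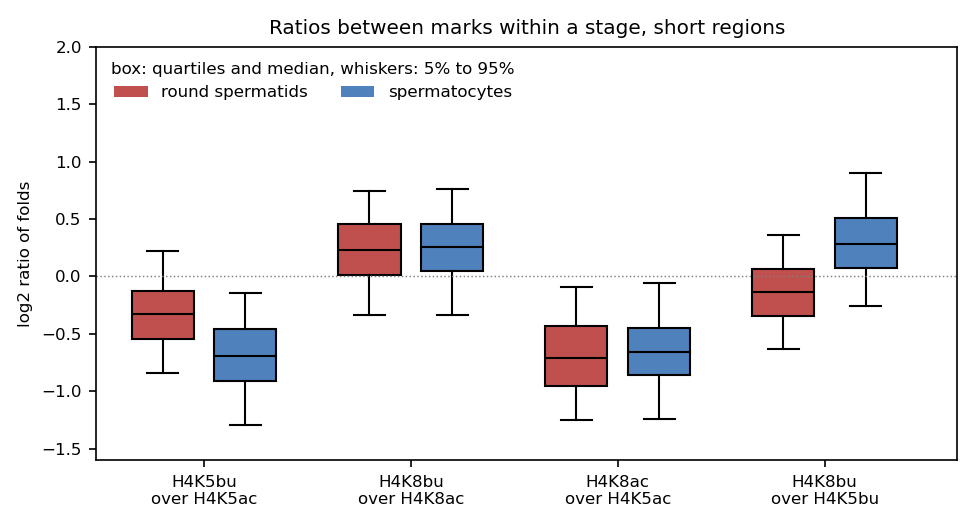
Log2 ratio of the folds of 2 marks within a stage (vertical axis) over the 1032 short regions, with round spermatids on the left of each pair and spermatocytes on the right; boxes give quartiles and the median, whiskers the 5th to 95th percentile, and the dotted line equal folds. Only H4K8bu over H4K5bu has medians on opposite sides of the line, at -0.14 in round spermatids and 0.29 in spermatocytes.

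The strength of a short region carried over between stages in part, while the ratio of its marks did not. Across the 1032 regions the log2 folds of the stages had a Pearson r of 0.35 in H4K5ac, 0.39 in H4K5bu, 0.34 in H4K8ac and 0.27 in H4K8bu, and a Spearman rho of 0.35, 0.40, 0.35 and 0.29 in the same order. For the log2 ratio of H4K5bu over H4K5ac r was 0.058, for H4K8bu over H4K8ac 0.018, for H4K8ac over H4K5ac 0.076 and for H4K8bu over H4K5bu -0.027. These are descriptions across regions; the stages share no library, but regions of a list share its depth and bias. The SD of the H4K5bu over H4K5ac ratio between regions was 0.34 in round spermatids and 0.36 in spermatocytes on the log2 scale. ChIP counts of this depth alone give an SD of 0.21 in round spermatids and 0.17 in spermatocytes, before the input reads and unequal island edges add theirs.

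Among single regions with at least 10 input reads in each list, the highest mean log2 fold over the 8 lists was found at chr2:130108601-130112400. In round spermatids H4K5ac had a fold of 17.2 there (10.9 to 28.6), H4K5bu 9.20 (6.19 to 14.1), H4K8ac 6.54 (3.89 to 11.6) and H4K8bu 6.15 (4.35 to 8.89). In spermatocytes H4K5ac had 21.5 (12.9 to 38.4), H4K5bu 16.2 (9.04 to 32.0), H4K8ac 11.5 (6.59 to 21.5) and H4K8bu 12.7 (7.94 to 21.6). All 4 marks were lower in round spermatids, and all 4 pairs of intervals overlapped. The H4K5ac folds rested on 171 ChIP over 21 input reads in round spermatids and 204 over 16 in spermatocytes.

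The next regions by this mean differed in how the stages compared. At chr8:71316801-71320200 the H4K5ac fold was 9.46 in round spermatids (6.41 to 14.3) and 24.4 in spermatocytes (14.5 to 44.4). At chr2:112294001-112297400 it was 8.59 in round spermatids (6.31 to 11.9) and 24.6 in spermatocytes (15.9 to 39.7), and the other marks there were also lower in round spermatids, with 7.51 in round spermatids against 14.3 in spermatocytes for H4K5bu, 4.22 in round spermatids against 12.2 in spermatocytes for H4K8ac, and 5.64 in round spermatids against 12.9 in spermatocytes for H4K8bu. At chr5:60623401-60626200 the order was turned for 3 marks. In round spermatids H4K5ac had 15.3, H4K5bu 11.9, H4K8ac 5.67 and H4K8bu 8.96. In spermatocytes H4K5ac had 12.6, H4K5bu 8.31, H4K8ac 8.13 and H4K8bu 8.35, and all 4 pairs of intervals overlapped.

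The largest difference towards spermatocytes in H4K5ac lay at chr13:65152001-65155400. Its H4K5ac fold was 2.88 in round spermatids (2.12 to 3.93), from 102 ChIP and 75 input reads, and 20.8 in spermatocytes (12.5 to 37.1), from 197 and 16. The other marks went the same way there, with folds of 2.52 to 3.32 in round spermatids, against 8.33 to 12.2 in spermatocytes. For H4K8bu the extreme was chr4:25357801-25360800, with 2.51 in round spermatids (1.66 to 3.84) and 13.6 in spermatocytes (8.58 to 22.6). For H4K8ac it was chr2:167054201-167057600, with 2.22 in round spermatids (1.58 to 3.15) and 13.8 in spermatocytes (7.96 to 25.8), but there the H4K8ac island was 3200 bp long in round spermatids and 1600 bp in spermatocytes. For H4K5bu it was chr17:5188201-5192000, with 3.82 in round spermatids (2.42 to 6.20) and 15.4 in spermatocytes (8.59 to 30.5). At each of these regions the extreme mark also had more input reads per kb in round spermatids. On chromosome 13 H4K5ac had 22.1 in round spermatids, over 3400 bp, and 7.27 in spermatocytes, over 2200 bp. On chromosome 17 H4K5bu had 15 in round spermatids and 6 in spermatocytes. All these regions were chosen as extremes and their intervals are not adjusted for that.

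In the other direction, chr14:53054801-53058200 was the extreme for H4K5ac and for H4K8bu. In round spermatids H4K5ac had a fold of 15.2 there (10.8 to 21.8), H4K5bu 7.27 (5.24 to 10.3), H4K8ac 5.71 (3.96 to 8.42) and H4K8bu 11.0 (7.77 to 16.0). In spermatocytes H4K5ac had 4.32 (3.01 to 6.30), H4K5bu 2.27 (1.48 to 3.54), H4K8ac 2.58 (1.75 to 3.86) and H4K8bu 3.70 (2.65 to 5.26). All 4 marks were higher in round spermatids, and no pair of intervals overlapped. The H4K5ac island held 280 ChIP and 39 input reads in round spermatids, and 110 and 43 in spermatocytes.

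At chr3:19400401-19403600, the extreme for H4K5bu, its fold was 9.27 in round spermatids (6.20 to 14.3) and 2.31 in spermatocytes (1.54 to 3.51). In round spermatids H4K5ac had 9.56 there, H4K8ac 4.81 and H4K8bu 6.74, against 3.20, 2.26 and 2.74 in spermatocytes, again all higher in round spermatids. At chr8:74255801-74258400, the extreme for H4K8ac, its fold was 3.84 in round spermatids (2.56 to 5.87) and 1.40 in spermatocytes (0.929 to 2.12). The spermatocyte interval there includes a fold of 1.

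Regions with an extreme ratio of butyryl to acetyl rested on few input reads or on islands of unequal length. The highest H4K5bu over H4K5ac ratio in round spermatids was at chr16:38427601-38430400, where H4K5bu was 15.2 (6.99 to 39.1) from 72 ChIP over 7 input reads in 1200 bp. H4K5ac was 3.73 there (2.41 to 5.87) from 60 over 34 reads in 2400 bp. In spermatocytes the same region had H4K5bu at 5.74 and H4K5ac at 11.7, so the order of the marks was the reverse. The lowest H4K5bu over H4K5ac ratio in spermatocytes, at chr3:39002001-39005200, came from an H4K5ac fold of 31.0 (10.1 to 155) over 3 input reads in an island of 800 bp. At K8 the highest ratio in round spermatids was at chr14:35163601-35167200, with H4K8bu at 6.93 (3.92 to 13.1) over 1600 bp and H4K8ac at 2.47 (1.73 to 3.56) over 3400 bp. The other extremes were alike in this. The lowest K5 ratio in round spermatids, 0.302 at chr10:62592401-62595800, set an H4K5bu island of 3400 bp against an H4K5ac island of 1200 bp. The highest in spermatocytes, 1.60 at chr11:58051401-58054000, had 8 input reads under H4K5bu. The lowest K8 ratio in round spermatids was 0.425 at chr7:147321001-147324800, with islands of 3400 bp for H4K8bu and 1200 bp for H4K8ac. In spermatocytes the highest was 3.17 at chr8:72653601-72656800 and the lowest 0.564 at chr17:5188201-5192000.

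Regions near the ends of the length range, leaving out chromosome 18, where the region of 600 bp lies, had these values. At chr4:20215001-20216400, 1400 bp long, the H4K5ac fold was 8.61 in round spermatids (4.83 to 16.3) and 12.1 in spermatocytes (6.86 to 22.9), and the other marks lay below it in both stages. Of the 210 regions of 3800 bp, chr2:3427801-3431600 and chr10:58526201-58530000 had the most ChIP reads. At the region on chromosome 2 it was 6.96 in round spermatids (5.18 to 9.48) and 12.9 in spermatocytes (9.40 to 18.1). At the region on chromosome 10 it was 4.51 in round spermatids (3.23 to 6.35) and 9.46 in spermatocytes (7.34 to 12.4), and H4K5bu at 5.27 was the highest mark in round spermatids.

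The short regions were spread over all 19 autosomes. They made up 1.18% of the merged regions of chromosome 14 (34 regions, 0.821 to 1.65, exact binomial), the lowest share, and 2.19% of those of chromosome 2 (97 regions, 1.78 to 2.67), the highest. On every autosome the median H4K5ac fold was lower in round spermatids, with a median log2 ratio from -1.07 on chromosome 18 to -0.49 on chromosome 1. The H4K5bu medians ran from -0.67 on chromosome 19 to -0.16 on chromosome 1. The median difference of the H4K8bu over H4K5bu ratio was below 0 on each autosome, from -0.59 to -0.27, and that of H4K5bu over H4K5ac above 0, from 0.10 to 0.59.

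The distance to the next marked place lay between those of longer and of less often called regions. The nearest other merged region was a median of 9400 bp away from a short region, against 8000 bp for regions of 4000 to under 8000 bp and 5600 bp for those of 8000 bp or more called in all 8 lists. For regions under 4000 bp called in 1 to 7 lists it was 11400 bp. The nearest region was itself called in all 8 lists for 282 short regions (27.3%), against 31.5% for each of the longer classes and 24.1% for regions under 4000 bp called in 1 to 7 lists. The input at short regions was like that at longer ones, 16.7 reads per kb of H4K5ac island in round spermatids and 13.3 in spermatocytes, beside 16.7 in round spermatids and 13.3 in spermatocytes in regions of 8000 bp or more. Regions under 4000 bp called in 1 to 7 lists had 18.2 in round spermatids and 15.0 in spermatocytes.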

How the data were processed

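Per the submitters' processing notes, the tools were CASAVA 1.8.2, Bowtie2 2.2.5, deepTools 1.5.11 and SICER, with the build mm9; their settings are not given in the sources used here. SICER joins enriched windows into islands. The authors deposited 1 list per immunoprecipitated library giving for every island a count of ChIP reads, a count of input reads, the fold, and a p-value with its q-value. The deposited fold was checked to be the ratio of the counts times 1 constant per list. Edges fell on multiples of 200 bp. The deposited p-values and q-values were not used further.

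Islands of all 8 lists were merged by overlap of at least 1 bp (Python 3.11.15, pandas 2.3.3, numpy 2.4.6, scipy 1.17.1). A called difference was a ratio of folds of at least 1.5 either way, and its background was all autosomal regions with the values compared. Groups were taken from the sample titles. The statistics were tested on simulated data. The sources used here name no molecular identifiers; where none are used, PCR copies can be counted, so intervals cover counting error only. Alternatives were other length limits, a minimum of 50 ChIP reads, 1 island of each list and the upper 50% of each list by fold. Further alternatives were pooled reads, centring, touching islands merged, 1 list not required and islands with the same edges. ChIP reads per kb without input, still times the constants of the lists, were chosen after seeing the data.

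Named regions, none on chromosome 18, were the 5 with the highest mean log2 fold (at least 10 input reads in each list), the extreme of each mark's stage ratio and of each butyryl to acetyl ratio per direction (at least 50 ChIP reads in both lists), the 2 shortest and the 2 longest (ties by most ChIP reads), and the windows of 1 Mb with the most short regions. The regions and the rules were chosen with earlier results of these data known. The planned gene lists are not analysed here.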

Additional observations from a re-analysis of the deposited data

Results flagged for a closer look

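The ratio of the butyryl marks had opposite signs in the stages. The median log2 ratio of H4K8bu over H4K5bu in the short regions was -0.14 in round spermatids and 0.29 in spermatocytes. With 1 library per group this difference was not tested. The constants of the lists, which set the level of each ratio, enter it directly. For H4K8bu and H4K5bu they were 1.53 and 1.47 in round spermatids, and 1.18 and 1.19 in spermatocytes. Without input and constant, median ChIP reads per kb were 41.3 for H4K8bu and 47.5 for H4K5bu in round spermatids. In spermatocytes they were 78.2 for H4K8bu and 63.2 for H4K5bu. Over all autosomal regions with both butyryl marks the median log2 ratio was -0.073 in round spermatids and 0.22 in spermatocytes, so the signs differed there too.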

How the results depend on the processing

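No ratio changed its sign under any alternative. Every alternative for a ratio between marks kept the constants of the lists, so the sign was not tested without them. Without input and constant, H4K5bu had 47.5 and H4K5ac 41 median ChIP reads per kb in round spermatids, the reverse order. Of 106 values, 69 stayed within the interval of the reported median or within 1.5 times the reported count, and 37 moved. The 106 include counts of regions, which have no direction. They also include the setting of 1 island of each list, which returned the same 1032 regions and so could not move any value. The cause of the moves was not tested. No paired analysis was possible because each group had 1 library, and so leaving out a replicate was not an option.

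The number of short regions was 196 under 3000 bp, 2440 under 5000 bp and 352 when islands had to lie in the upper 50% of their own list. It was 1028 with touching islands merged and 1038 to 1516 with 1 list not required, the highest without H4K8ac of round spermatids.

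Stage ratios (log2, H4K5ac, H4K5bu, H4K8ac, H4K8bu) were -0.86, -0.44, -0.87 and -0.92 under 3000 bp, and -0.53, -0.30, -0.38 and -0.57 when centred. Under 5000 bp H4K5bu had -0.34 and H4K8ac -0.75. In the upper 50% H4K8bu had -0.93.

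H4K5bu over H4K5ac in spermatocytes was -0.65 under 3000 bp, -0.74 in the upper 50% and -0.73 pooled; in round spermatids it was -0.36 in the upper 50%. H4K8bu over H4K8ac in round spermatids was 0.26 under 3000 bp, 0.26 under 5000 bp, 0.26 pooled and 0.38 over islands with the same edges; in spermatocytes it was 0.29 under 5000 bp and 0.30 in the upper 50%. H4K8ac over H4K5ac in round spermatids was -0.75 under 5000 bp, -0.76 in the upper 50%, -0.75 pooled and -0.93 with the same edges. Without input it was -0.67, but this kept the constants, 1.42 for H4K8ac and 2.12 for H4K5ac. Median ChIP reads per kb without constants were 39 for H4K8ac and 41 for H4K5ac. In spermatocytes H4K8ac over H4K5ac was -0.59 under 3000 bp, -0.69 under 5000 bp, -0.71 in the upper 50% and -0.70 pooled. H4K8bu over H4K5bu in round spermatids was -0.097 under 3000 bp, -0.19 in the upper 50% and -0.084 with the same edges, and in spermatocytes 0.32 in the upper 50%.

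Depth limits single regions: with a median of 70 to 190 ChIP reads and 30 to 40 input reads per list, the interval of 1 fold is wide.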

Other observations

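Up to 5 short regions lay in the same window of 1 Mb. Of the windows that held any, 589 held 1, 156 held 2, 31 held 3, 7 held 4 and 2 held 5. Other merged regions were not counted by window, so a gathering of short regions was not tested. The windows with 5 were chromosome 5 from 130 to 131 Mb and chromosome 13 from 67 to 68 Mb. On chromosome 5 round spermatids had H4K5ac folds of 4.66 to 10.0 over the 5 regions, against 9.29 to 18.3 in spermatocytes. On chromosome 13 round spermatids had 3.80 to 7.78, against 7.60 to 13.4 in spermatocytes. In 9 of these 10 regions all 4 marks had a lower fold in round spermatids, beside 70.4% of all 1032 short regions. At chr13:67708801-67712400 H4K8ac was close to equal, with a log2 ratio of 0.014, and the other marks were lower.

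The shortest named region stood on deep input. At chr2:181746801-181748000, 600 bp of H4K5ac island held 271 ChIP and 254 input reads in round spermatids, a fold of 2.26 (1.90 to 2.69), and 215 and 217 in spermatocytes, a fold of 1.67 (1.38 to 2.03). Over 50 input reads per kb in all 8 lists were found in 2 of the 1032 short regions, and in at least 1 list in 3.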
